A study of Mus musculus with 56 samples.

Results

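The kidney clears many drugs, toxins and metabolic end products by secretion across the proximal tubule. Transporters of the SLC22 family take organic anions and cations up from the blood at the basolateral membrane, and multidrug and toxin extrusion (MATE) and ATP-binding cassette (ABC) proteins release them into the urine at the apical membrane. Apical members of the SLC22 family work the other way and return solutes such as urate to the cell. Transcript levels were followed for 9 such genes, listed by name from the 17027 genes of the kidney table, by a rule that uses no measured value. Earlier results of these data were known when the genes were chosen. They are the organic anion transporters Slc22a6 (OAT1), Slc22a8 (OAT3) and Slc22a7 (OAT2), the organic cation transporter Slc22a2 (OCT2), the MATE antiporter Slc47a1 (MATE1), the efflux pumps Abcg2 (BCRP), Abcc4 (MRP4) and Abcb1a (a P-glycoprotein), and the urate transporter Slc22a12 (URAT1).

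Kidneys came from C57BL/6J females that were 9 weeks old. At 7 weeks the mice were housed in groups under 12 h of light and 12 h of darkness and had normal chow at all times for 7 days, after which food was given only by day (DRF) or only by night (NRF, the control regimen) for another 7 days. Both groups thus ate under a restricted schedule, no freely fed group was among the samples, and males were not measured here. Polyadenylated RNA of 4 kidneys per group was sequenced in pairs of 100-base reads at zeitgeber times ZT0, 4, 8, 12, 16, 20 and 24, where ZT0 is lights on, which gave 14 groups and 56 libraries.

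The levels below are in TPM, a level scaled to transcript length and library size, computed here from the reads that the deposited values encode, between 22.1 M and 24.9 M per library (M, 1e6 reads). Genes were compared on the scale of log2(TPM + 1), and "adjusted p" is the Benjamini-Hochberg value of a limma test over the 13330 genes with a mean of at least 1 TPM. A result with an adjusted p under 0.05 is said to be called. All 9 transporters passed that filter on their mean. The labels give 4 samples per group and do not say which animals shared a cage, so the p-values measure the spread between these kidneys. One NRF ZT24 library carried no replicate number and was placed by its group alone. The kidney markers were present. The 7 proximal tubule markers, Lrp2, Cubn and Slc34a1 among them, summed to between 9101 and 12446 TPM in every library, and 2 of the 7 were called as rhythmic under NRF and 1 under DRF. Other kidney lists spread more between libraries. Their sums ran from 2691 to 5828 TPM for the first proximal segment (S1) and 1862 to 5734 TPM for the last (S3). They ran from 4241 to 10478 TPM for thick ascending limb and distal tubule, and 528 to 2286 TPM for collecting duct and medulla. Summed adipose markers ranged from 0.265 to 890 TPM and were highest in an NRF ZT12 library (replicate 1). In whole kidney, fewer cells of a type and less RNA per cell cannot be told apart.

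The transporters spanned a wide range of levels. On the TPM scale, which is per transcript length, Slc22a12 was the highest at 1376 ± 300.5 TPM (mean ± SD, n = 56) and Abcb1a the lowest at 12.3 ± 2.43. Slc22a8 followed Slc22a12 at 1139 ± 166 TPM and was the lower of the pair in 45 of 56 libraries. Slc47a1 (617 ± 59.9), Slc22a6 (548 ± 84.7), Slc22a7 (401 ± 151) and Slc22a2 (384 ± 42.9) formed a middle group whose ranges overlapped from each gene to the next. Slc22a7 and Slc22a2 were the least separate of these neighbours, with Slc22a7 above in 32 of 56 libraries. Abcg2 at 188 ± 25.7 TPM and Abcc4 at 98.9 ± 23.5 TPM were in this order in all 56 libraries. The uptake and urate transporters were thus more abundant as transcripts than the 3 ABC pumps. The counts behind these values were high, from 329 reads for Abcb1a in its lowest library to 35488 reads for Slc22a8 in its highest.

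**Figure D1:**
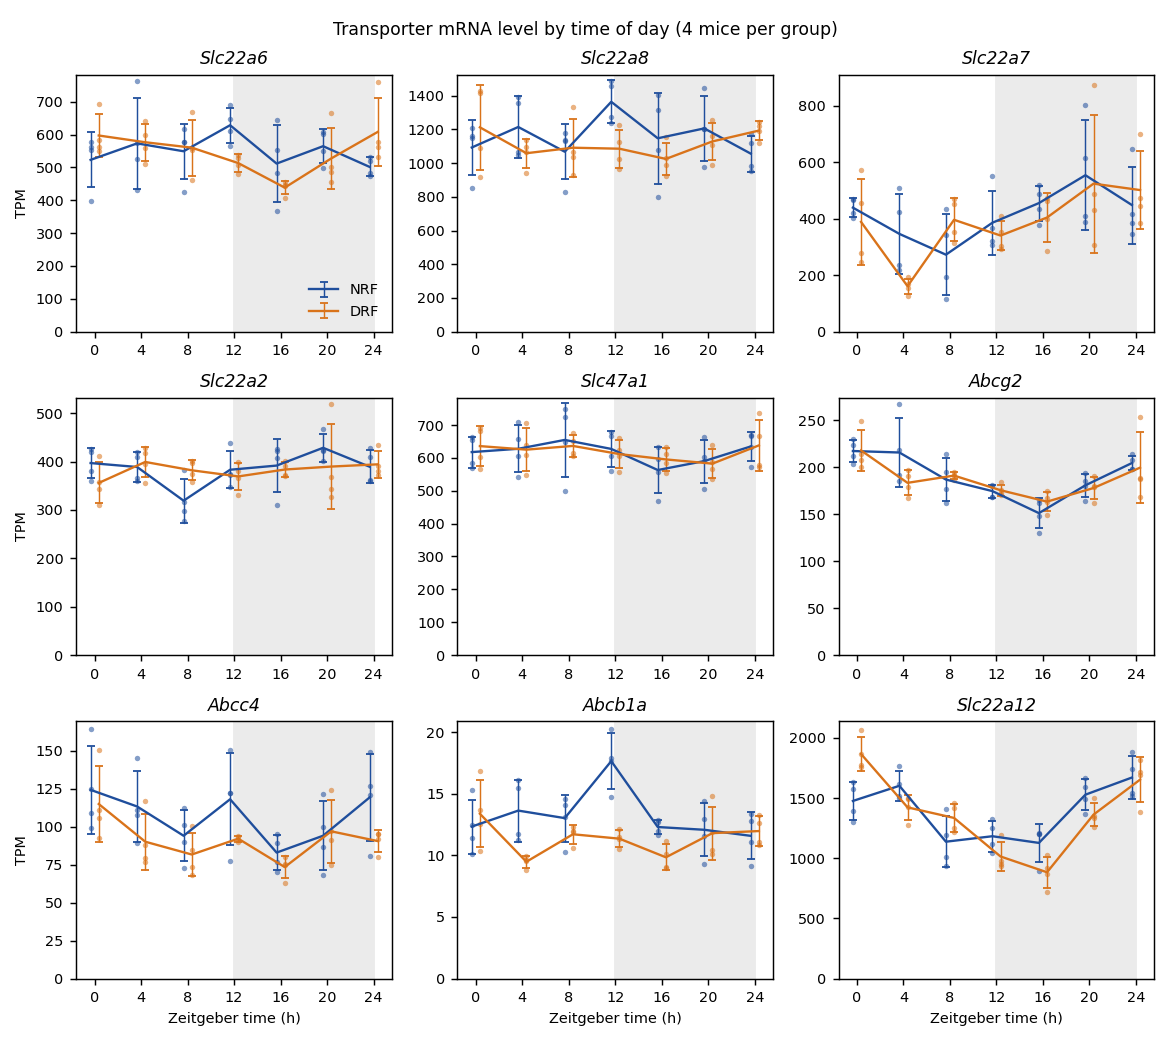
TPM (vertical axis, starting at 0) of each transporter against zeitgeber time in hours, with NRF in blue and DRF in orange and the dark phase shaded. Points are single kidneys, lines join group means and bars are the SD of 4 kidneys. Slc22a12 fell to its lowest means at ZT16 under both regimens, Abcb1a had a single high group at NRF ZT12, and Slc47a1 stayed between group means of 563 and 655 TPM.

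Slc22a8 and Slc22a6 lie next to each other on chromosome 19 (GRCm38, 8591254 to 8611835 and 8618039 to 8628299, both on the plus strand, as annotated by GENCODE M21 like the other gene positions below), with 6203 bases between them. The RefSeq table of GRCm38.p6 promoters held 10 start sites for 7 of the 9 transporters, and none for Slc22a7 and Slc47a1. The 250 bases before the RefSeq start are shown for the genes of this pair and for the one Abcc4 start whose window held an E-box. The RefSeq start of Slc22a8 lies downstream of the GENCODE start, so its window falls inside the gene span given above. The pair is shown because both genes are organic anion transporters with similar profiles (below), and the Abcc4 window because it was the 1 of 10 that held any of the searched letters, which are in capitals.

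Slc22a6, chr19:8617746-8617995, plus strand: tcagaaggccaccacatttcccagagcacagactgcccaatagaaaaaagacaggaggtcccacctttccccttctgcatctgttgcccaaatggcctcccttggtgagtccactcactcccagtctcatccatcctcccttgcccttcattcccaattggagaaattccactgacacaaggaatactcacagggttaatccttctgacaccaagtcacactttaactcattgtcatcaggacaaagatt
Slc22a8, chr19:8592932-8593181, plus strand: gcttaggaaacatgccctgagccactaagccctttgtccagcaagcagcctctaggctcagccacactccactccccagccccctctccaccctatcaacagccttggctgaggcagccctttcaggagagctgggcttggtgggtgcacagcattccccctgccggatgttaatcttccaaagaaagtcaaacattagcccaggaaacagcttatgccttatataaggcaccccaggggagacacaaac
Abcc4, chr14:118706220-118706469, minus strand: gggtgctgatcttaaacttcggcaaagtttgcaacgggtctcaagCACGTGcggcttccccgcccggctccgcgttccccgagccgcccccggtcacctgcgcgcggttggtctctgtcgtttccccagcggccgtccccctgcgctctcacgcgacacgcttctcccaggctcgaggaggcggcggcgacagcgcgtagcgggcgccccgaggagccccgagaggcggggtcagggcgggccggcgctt

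CACGTG, the E-box read by CLOCK and BMAL1, stood 205 bases before the Abcc4 start and was present in 6.02% of 32851 RefSeq promoter windows of that length, read on both strands. TAGGTCA, the site of REV-ERB and ROR receptors, is in 2.23% of windows and was in none of the 10. Of the genes called below as rhythmic under both regimens, Slc22a12 and Abcg2 had windows, and these held none of the searched letters.

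A 24-h cosine was fitted to each regimen. Its amplitude is the distance on the log2 scale from the mean level to the peak. Under NRF, 5 of the 9 transporters were called as rhythmic, namely Slc22a7, Slc22a12, Abcg2, Abcb1a and Slc22a2, where 53.0% of all genes tested were called. Under DRF, 4 were called, Slc22a7, Slc22a12, Abcg2 and Slc22a6, against 36.7% of all genes. The members' shares were near those of the whole transcriptome. Their median amplitudes were 0.18 under NRF and 0.13 under DRF, and those of all genes tested were 0.13 and 0.11. With limma 0 transporters were called for a difference in amplitude between regimens (2, Slc22a2 and Slc22a12, at an unadjusted p under 0.05), for which 5.69% of genes were called. Slc22a7, Slc22a12 and Abcg2 were called under both regimens, as were 24.8% of genes. Within each of these 3 genes, the NRF and DRF peaks were at most 1.40 h apart in clock time. Among all genes rhythmic under both regimens the median absolute shift was 6.15 h.

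**Figure D2:**
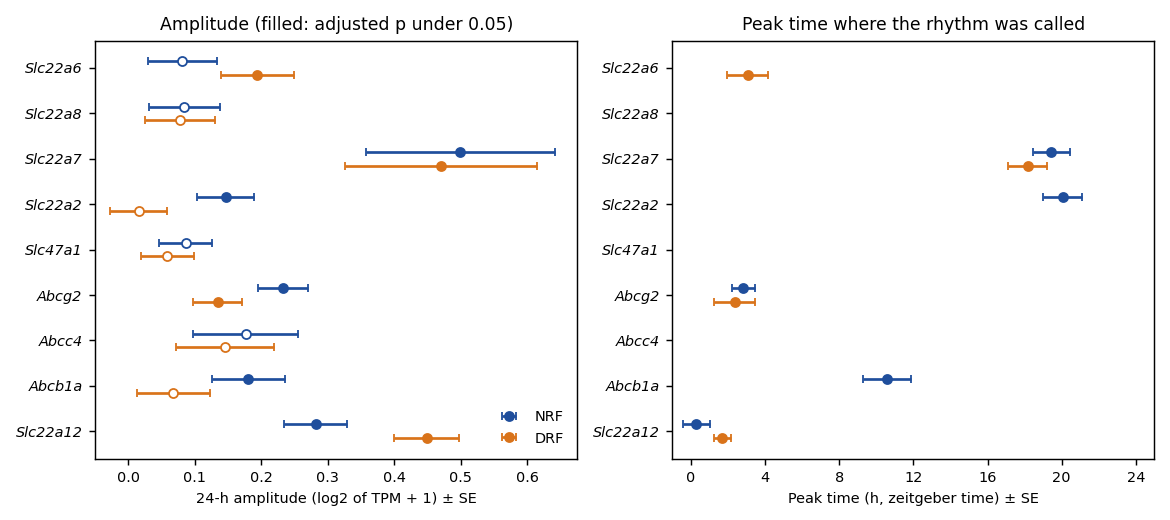
Left, 24-h amplitude (log2 of TPM + 1) with its SE for NRF in blue and DRF in orange, filled where the rhythm was called. Right, peak time in hours of zeitgeber time with its SE, only for called rhythms. Slc22a7 had the largest amplitudes, 0.50 under NRF and 0.47 under DRF. Each of the 3 genes called under both regimens had its NRF peak near its DRF peak.

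Of the genes for basolateral uptake, Slc22a6 encodes OAT1, the transporter of para-aminohippurate that exchanges organic anions for dicarboxylates. Under DRF its 4 kidneys held 533, 562, 579 and 759 TPM at ZT24 and 408, 445, 446 and 455 TPM at ZT16. These extreme groups did not overlap and their means differed by 1.39 times. The DRF rhythm had an amplitude of 0.19 ± 0.06 (SE) and a peak at 3.05 ± 1.08 h (adjusted p = 0.00476). It was not called without ZT16 (adjusted p = 0.161) or with the deposited values on a log2 scale (adjusted p = 0.0502). Under NRF the amplitude was 0.08 ± 0.05 and the rhythm was not called (adjusted p = 0.476), with the highest group mean at ZT12 (564, 612, 647 and 691 TPM) and the lowest at ZT24 (473, 482, 519 and 533 TPM). The rhythms of both regimens differed by the test of the difference itself, which compares the fitted cosines (adjusted p = 0.0259), as they did for 3 of the 9 transporters and 46.5% of all genes. That call was lost when ZT0 (0.0766), ZT12 (0.146) or ZT24 (0.125) was left out, with the deposited values (0.109) and with the authors' library sizes (0.0501, all adjusted p). At ZT12 every DRF kidney (479, 508, 530 and 537 TPM) was below every NRF kidney, but the difference of -0.29 ± 0.14 was not called (adjusted p = 0.149).

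Slc22a8, which encodes OAT3 with its wide range of anionic drugs, followed its neighbour in outline. Its NRF ZT12 kidneys had 1237, 1273, 1458 and 1487 TPM and its DRF ZT12 kidneys 967, 1026, 1125 and 1225 TPM. These groups did not overlap, and the difference of -0.33 ± 0.14 was not called (adjusted p = 0.0951). Its rhythm was called under neither regimen (adjusted p = 0.459 and 0.297), with amplitudes of 0.08 under both. The profile of Slc22a8 over the 14 group means on the log2 scale correlated with that of Slc22a6 at r = 0.74 and with that of Abcb1a at r = 0.82, the closest of the 9350 genes with a mean of at least 10 TPM. These are descriptions over 14 means that share their kidneys.

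Slc22a7 (chromosome 17, 46432183 to 46438457) encodes OAT2, which carries cyclic nucleotides and prostaglandins among others. It is grouped here with the uptake genes, although in the rodent kidney the protein is placed at the apical membrane of the last proximal segment. It was the most variable of the 9, with a median coefficient of variation of 28.3% within a group. Under DRF its ZT4 kidneys held 127, 156, 169 and 192 TPM, below all 4 NRF kidneys of that time (217, 237, 423 and 507 TPM). The difference of -1.02 ± 0.31 was the largest between regimens for any transporter (adjusted p = 0.00944). At ZT4 it was 1 of 2 members called, with Abcb1a, against 31.3% of all genes. Without NRF ZT4 replicate 4 the difference was -0.81 (adjusted p = 0.0615). Markers of the S3 segment, the last part of the proximal tubule, had their lowest mean sums at ZT4 in both regimens. These were 2767 TPM under DRF (2264 to 3017) and 2887 TPM under NRF (1888 to 3903). Slc22a7 itself was lowest at ZT8 under NRF (116, 195, 344 and 435 TPM). Of the 5 S3 markers 0 were called between regimens at ZT4 with limma, and 0 at an unadjusted p under 0.05. The part of S3 content in the Slc22a7 difference was not tested.

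The highest mean of Slc22a7 was at ZT20 under both regimens. The NRF kidneys then held 388, 410, 614 and 803 TPM and the DRF kidneys 306, 430, 488 and 873 TPM. Fitted peaks were at 19.4 ± 0.99 h under NRF (adjusted p = 0.00485) and 18.2 ± 1.04 h under DRF (adjusted p = 0.0482), a shift of -1.28 ± 1.44 h. The highest and lowest group means differed by 2.03 times under NRF and 3.26 times under DRF. The NRF call held without any 1 library or time point and was not made by a test for any difference among time points (adjusted p = 0.0793), whereas the DRF call rested on its margin and was lost without 1 library in 20 of 56 cases, with no filter on low values and without ZT0, ZT4, ZT12, ZT16 or ZT20. Under DRF a component with a period of 12 h was also called for Slc22a7 (amplitude 0.49, adjusted p = 0.0128), and its ZT8 kidneys had 313, 351, 451 and 468 TPM. The gene most like Slc22a7 across the group means was Itfg1 (r = 0.91), followed by Slc22a19 (r = 0.90), an organic anion transporter that is itself one of the S3 markers used here.

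Slc22a2 (chromosome 17, 12584132 to 12628488) encodes OCT2, the uptake route of metformin and creatinine. Under NRF it was lowest at ZT8 (278, 298, 317 and 383 TPM) and highest at ZT20 (400.3, 421, 424 and 468 TPM), groups that did not overlap. The amplitude was 0.15 ± 0.04 with a peak at 20.1 ± 1.04 h (adjusted p = 0.0160). The call was lost without ZT8 (adjusted p = 0.457), without ZT20 (0.108) and without NRF ZT8 replicate 2 (0.0560). Under DRF the 7 group means lay between 356 and 399 TPM, with an amplitude of 0.02 ± 0.04 (adjusted p = 0.945). Whether the NRF and DRF rhythms of Slc22a2 differ remained short of the threshold (adjusted p = 0.0813), although the test passed without DRF ZT20 replicate 2 (0.0122), NRF ZT12 replicate 4 (0.0463), NRF ZT16 replicate 2 (0.0322) or ZT12 (0.0440).

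The efflux side opened with the gene whose highest and lowest group means differed least, by 1.16 times under NRF and 1.10 times under DRF. Slc47a1 (chromosome 11, 61343401 to 61378345) encodes MATE1, the proton antiporter that passes cations taken up by OCT2 into the urine. Its lowest library held 468 and its highest 748 TPM, and it was called in no comparison with all samples. The rhythm against meal time (adjusted p = 0.0848) passed without ZT4 (0.0453), DRF ZT4 replicate 4 (0.0420), NRF ZT4 replicate 4 (0.0381) or NRF ZT8 replicate 1 (0.0221). Amplitudes were 0.09 ± 0.04 under NRF (adjusted p = 0.241) and 0.06 ± 0.04 under DRF (adjusted p = 0.316). The DRF minus NRF difference in mean level was 0.00 on the log2 scale with a 95% interval from -0.08 to 0.09. Mean level is tested here over clock time, so ZT0 and ZT24 share the weight of the same clock time.

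Abcg2 (chromosome 6, 58584523 to 58695676) encodes BCRP, an apical pump for sulfated conjugates, urate and many drugs. Under NRF its 4 kidneys had 203, 212, 224 and 230 TPM at ZT0 and 130, 148, 162 and 165 TPM at ZT16. Under DRF the ZT0 kidneys had 199.8, 208, 214 and 250 TPM and the ZT16 kidneys 149, 162, 167 and 174 TPM. In both regimens the ZT0 group lay wholly above the ZT16 group. The fitted peaks were at 2.83 ± 0.63 h under NRF (amplitude 0.23 ± 0.04, adjusted p = 2.82e-05) and 2.37 ± 1.10 h under DRF (amplitude 0.13 ± 0.04, adjusted p = 0.0177). The DRF call was lost with median-of-ratios scaling (adjusted p = 0.0635), with the authors' library sizes (0.0731), with the deposited values (0.205) and without ZT0 (0.0933) or ZT16 (0.169). No time point was called between regimens. At ZT4 the difference was -0.22 ± 0.09 (adjusted p = 0.0647), which passed without NRF ZT4 replicate 2 (0.0281), NRF ZT4 replicate 4 (0.0258) or DRF ZT24 replicate 4 (0.0365).

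Abcc4 (chromosome 14, 118482692 to 118706219) encodes MRP4, which exports cyclic nucleotides, urate and antiviral drugs. It spread widely within groups, from 98.9 to 164 TPM among the NRF ZT0 kidneys for example. Neither rhythm was called (amplitude 0.18 ± 0.08, adjusted p = 0.209 under NRF, and 0.15 ± 0.07, adjusted p = 0.145 under DRF). Both were called with ZT12 left out (adjusted p = 0.0155 and 0.0328), and under DRF a test for any difference among time points was (0.0266). Averaged over the 7 time points it had 106 TPM in NRF mice against 91.3 TPM in DRF mice. The tested difference in mean level was -0.20 ± 0.07 and missed the threshold (adjusted p = 0.0667). It passed with ZT20 left out (0.0152) and with each of 9 single libraries left out, namely DRF ZT0 replicate 2, DRF ZT4 replicate 4, DRF ZT8 replicate 1, DRF ZT20 replicate 4, NRF ZT4 replicate 2, NRF ZT8 replicate 3, NRF ZT12 replicate 4, NRF ZT20 replicate 3 and NRF ZT24 replicate 1 (adjusted p from 0.0229 to 0.0458).

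Abcb1a (chromosome 5, 8660077 to 8748575) encodes one of the mouse P-glycoproteins, the pump for many lipophilic drugs. At NRF ZT12 its kidneys had 14.7, 17.7, 17.9 and 20.3 TPM, the highest group mean of this gene, and every one lay above the DRF ZT12 kidneys with 10.5, 11.4, 11.5 and 12.1 TPM. The difference was -0.59 ± 0.13 (adjusted p = 7.55e-04) and was the only one called at ZT12 among the 9, where 21.7% of genes were called. At ZT4 the DRF kidneys (8.81, 9.55, 9.62 and 9.92 TPM) were also all below the NRF kidneys (11.2, 11.7, 15.5 and 16.1 TPM), by -0.47 ± 0.13 (adjusted p = 0.00501). At ZT16 the groups did not overlap, but the difference of -0.30 ± 0.13 was not called (adjusted p = 0.145). Over the day the level was 0.24 ± 0.05 log2 units lower under DRF (adjusted p = 9.58e-04), from 13.2 to 11.4 TPM. This made Abcb1a the single transporter called for mean level, against 12.8% of genes. Without ZT12, an alternative chosen after seeing the data, the difference was -0.17 (adjusted p = 0.0505).

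The NRF rhythm of Abcb1a peaked at 10.6 ± 1.28 h (amplitude 0.18 ± 0.06, adjusted p = 0.0298) and rested on that ZT12 group, since without ZT12 its adjusted p was 0.499. It was also lost without ZT20 (0.0516) or ZT24 (0.0847), without any of NRF ZT12 replicates 1, 2 and 3 (0.0654, 0.0825 and 0.0691), without NRF ZT0 replicate 4 (0.0507) and without NRF ZT24 replicate 1 (0.0562). Under DRF no 24-h rhythm was called (amplitude 0.07 ± 0.05, adjusted p = 0.515), while a 12-h component was (amplitude 0.18, adjusted p = 0.00793), as was a test for any difference among time points (0.0187). The rhythms of the regimens differed (adjusted p = 0.0244), a call that was lost without ZT0 (0.0894), ZT12 (0.246) or ZT24 (0.0968), without NRF ZT12 replicate 2 (0.0580) and with the deposited values (0.0598).

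The Abcb1a counts were not whole reads. They came in hundredths of a read, as when a counting program shares reads between genes. The same held for the paralog Abcb1b, 49571 bases away on chromosome 5. It held for 1393 of the 17027 genes in all, Dbp and Nr1d1 among them. Whether Abcb1a and Abcb1b shared reads was not tested. Abcb1b was higher on average (21.2 TPM) and reached its highest mean at NRF ZT8, where the 4 kidneys had 22.2, 23.1, 32.8 and 41.0 TPM. Its NRF rhythm was called with a peak at 7.86 h (amplitude 0.33 ± 0.07, adjusted p = 0.00100), and its mean level did not pass the test between regimens (0.04 ± 0.06, adjusted p = 0.715). With both genes summed, the ZT12 difference was -0.18 (adjusted p = 0.376) and the difference in mean level -0.07 (adjusted p = 0.421), while the ZT4 difference stayed called (-0.37, adjusted p = 0.0349). The summed NRF rhythm was called (amplitude 0.27, adjusted p = 6.93e-04), the 12-h component under DRF was not (0.0533), and the rhythm against meal time was called (0.0288). The sum was chosen after seeing the data. Immune and endothelial markers were measured beside these pumps, since P-glycoprotein is also made by such cells. Of the 4 tested immune markers, 4 were lower under DRF at ZT12 (Ptprc, Cd79a, Lyz2 and Adgre1), 2 at ZT4 (Ptprc and Adgre1) and 2 in mean level. The sum of all 5 listed immune markers, tested or not, at ZT12 was 69.2 to 93.3 TPM under NRF and 43.9 to 57.8 TPM under DRF. Both this sum and Abcb1a were thus lower under DRF then. At ZT4 the DRF sums (62.5 to 69.3 TPM) were also all below the NRF sums (73.6 to 108 TPM). The highest mean sum of the immune markers was at NRF ZT16 (114 TPM), where Abcb1a averaged 12.3 TPM. Whether the immune sum and Abcb1a had like profiles over all groups was not tested. The part of immune cells in the Abcb1a difference was not tested. Of the 5 endothelial markers 1 was called at ZT12 (Flt1, higher under DRF), and their sum was 141 to 222 TPM under NRF and 187 to 209 TPM under DRF. The NRF ZT12 library with the most adipose markers is among the 4, and without it the ZT12 call held, as it did without any other library (adjusted p at most 0.00664).

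Slc22a12 (chromosome 19, 6535845 to 6543032) encodes URAT1, the apical exchanger that takes urate back from the tubule fluid, and had the lowest adjusted p for rhythm under DRF of the 9. Under DRF its kidneys held 1755, 1775, 1868 and 2070 TPM at ZT0 and 721, 865, 922 and 1025 TPM at ZT16. The group means differed by 2.11 times and the groups were far apart. Under NRF the highest mean was at ZT24 (1515, 1540, 1745 and 1884 TPM) and the lowest at ZT16 (895, 1203, 1204 and 1208 TPM), 1.48 times apart and also without overlap. The amplitudes were 0.45 ± 0.05 under DRF (adjusted p = 2.94e-07) and 0.28 ± 0.05 under NRF (adjusted p = 7.23e-05). Peaks were at 1.69 ± 0.45 h and 0.29 ± 0.73 h. Both calls held under every scaling, filter and pseudocount tried, and without any 1 library or time point.

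The Slc22a12 curves crossed during the day. At ZT0 DRF exceeded NRF (1298, 1395, 1578 and 1635 TPM) by 0.34 ± 0.11 in non-overlapping groups (adjusted p = 0.0243), the only call among the 9 at ZT0, where 20.3% of genes were called. At ZT24, the same clock time sampled again, the difference was -0.02 ± 0.11 (adjusted p = 0.950), with group means of 1654 TPM under DRF and 1671 TPM under NRF, so the ZT0 difference was not seen there. At ZT4 each DRF kidney (1276, 1424, 1492 and 1501 TPM) was just below each NRF kidney (1502, 1519, 1621 and 1768 TPM), by -0.17 ± 0.11 (adjusted p = 0.255). At ZT16 DRF was lower by -0.35 ± 0.11 (adjusted p = 0.0388), again the only call, with 8.78% of genes called. The ZT0 call was lost without DRF ZT0 replicate 1 (0.0958), NRF ZT0 replicate 1 (0.0703) or NRF ZT0 replicate 4 (0.102) and with the deposited values. The ZT16 call was lost with median-of-ratios scaling (0.167), with the authors' library sizes (0.170), with the deposited values (0.221) and without any 1 of the 8 ZT16 libraries except DRF replicate 4 and NRF replicate 2. The fitted rhythms differed between regimens at the margin (adjusted p = 0.0454), and this call was lost without 1 library in 33 of 56 cases, with the deposited values (0.0863), with no filter on low values (0.0534) and without ZT0 (0.149), ZT12 (0.0972), ZT16 (0.266), ZT20 (0.0873) or ZT24 (0.0580). A 12-h component was called under DRF (amplitude 0.18, adjusted p = 0.00601), though not with median-of-ratios scaling (0.111), the authors' library sizes (0.103) or the deposited values (0.0812).

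Across the day, then, members were called between regimens at ZT0, ZT4, ZT12 and ZT16 and at no other time. At ZT8, ZT20 and ZT24 the count was 0 of 9 with limma, against 17.3%, 19.2% and 16.1% of genes, and at an unadjusted p under 0.05 the counts were 3, 0 and 0. At ZT8 the call passed for Slc22a2, Slc22a7 and Slc22a12 without NRF ZT8 replicate 3 (adjusted p = 0.0197, 0.0308 and 0.0292). Without DRF ZT20 replicate 2 it passed for Slc22a2 at ZT8 (0.0362) and at ZT20 (0.0248). Groups of 4 that did not overlap were found for 1 member at ZT0 (21.1% of all genes), 3 at ZT4 (20.3%), 3 at ZT12 (23.6%) and 1 at ZT16 (12.5%). At ZT24 there was 1, Slc22a6, which was higher under DRF (22.0% of genes). None of the 9 was apart at ZT8 (22.0%) or ZT20 (20.2%).

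**Figure D3:**
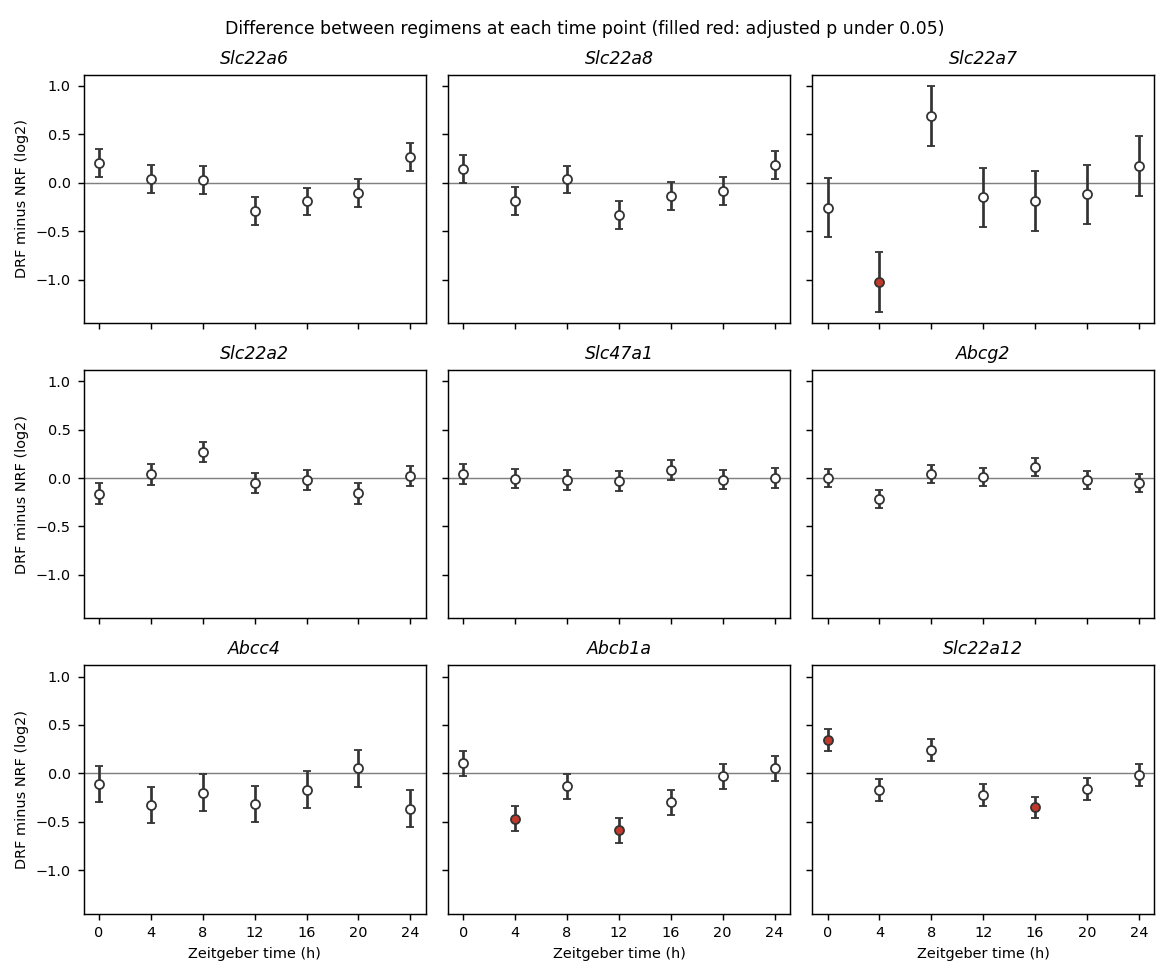
Difference DRF minus NRF in log2(TPM + 1) with its SE at each zeitgeber time in hours, for each transporter on one shared scale. Filled red points passed an adjusted p of 0.05. These are Slc22a12 at ZT0 and ZT16, Slc22a7 at ZT4, and Abcb1a at ZT4 and ZT12.

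The rhythms were also compared in hours since feeding began, by moving the DRF samples by 12 h. On this axis 3 transporters differed between regimens, against 44.7% of genes. They were Slc22a12 (adjusted p = 9.99e-12), Abcg2 (7.15e-07) and Slc22a7 (5.83e-04), the genes called as rhythmic under both regimens. Each held without any 1 library and any 1 time point. Abcc4 missed the threshold (0.0559) and passed without 1 library in 13 of 56 cases and without ZT4 (0.0490) or ZT12 (8.17e-04). With clock time kept, the rhythms of Slc22a7 (adjusted p = 0.724) and Abcg2 (0.266) were not called as different, and their shifts were -1.28 ± 1.44 h and -0.46 ± 1.27 h. For Slc22a12 the shift was 1.40 ± 0.86 h. The 12-h component was called for 3 transporters under DRF (Slc22a7, Slc22a12 and Abcb1a), against 31.4% of genes, and for 0 under NRF with limma (0 at an unadjusted p under 0.05 too), against 0.758%. The difference between regimens in that component was not tested. No transporter was called between ZT24 and ZT0 under either regimen (0 with limma, and 0 at an unadjusted p under 0.05), against 0.713% of genes under NRF and 0% under DRF.

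Profiles of the 9 were not one pattern. Pearson's r over the 14 group means ran from -0.45 (Slc22a2 with Slc47a1) to 0.82 (Slc22a8 with Abcb1a), with a median of 0.26 over the 36 pairs. Abcg2 was close to Slc22a12 (0.78), Abcc4 (0.70) and Slc47a1 (0.69). The closest profiles among all genes were Ablim3 and Bcl7c for Slc22a12 (both 0.91), Gmpr (0.91) and Amt (0.90) for Abcg2, Ptprf (0.93) and Man2b2 (0.92) for Abcb1a, and Parp1 (0.89) and Bscl2 (0.88) for Abcc4. Slc47a1 was closest to Sars2 (0.91) and Nudt1 (0.90), Slc22a6 to Ift27 (0.88) and Hemk1 (0.87), and Slc22a2 to Fam25c (0.90) and the anion transporter Slc22a28 (0.87). Abhd12 (0.82) was second for Slc22a8. The means share libraries and many genes were compared, so these values are descriptions only.

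**Figure D4:**
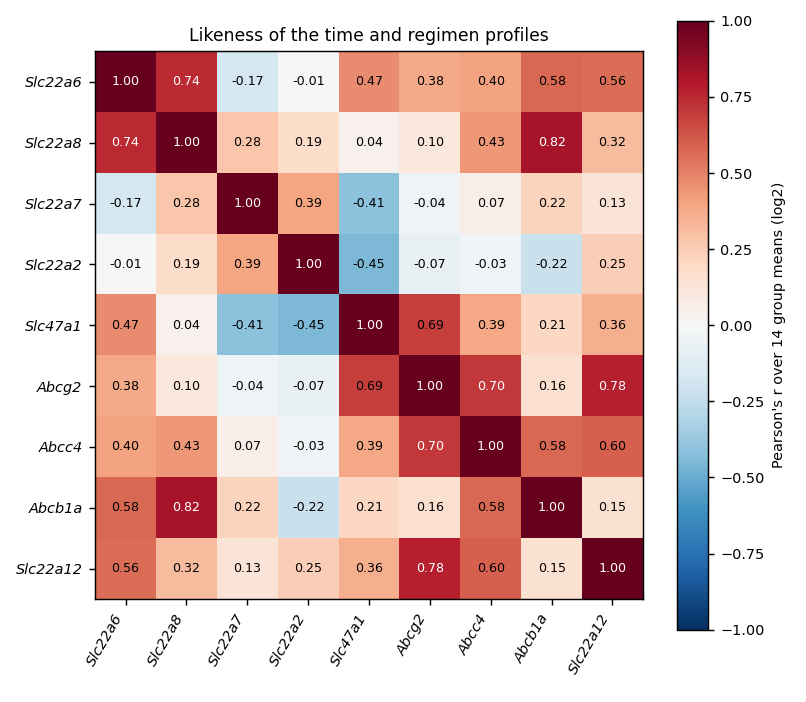
Pearson's r between the 14 group means (log2 of TPM + 1) of each pair of transporters, from -1 in blue to 1 in red. The highest value is 0.82, between Slc22a8 and Abcb1a, and the lowest -0.45, between Slc22a2 and Slc47a1.

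Other transporters of the same steps were read from wider lists, 50 further genes of which 43 were tested. Of these 28 were called as rhythmic under NRF (53.0% of all genes), 18 under DRF (36.7%) and 19 for a difference in rhythm (46.5%), and 5 were called for mean level (12.8%), 2 higher and 3 lower under DRF. These shares of all genes are the background of the list counts that follow. Their median amplitudes were 0.24 and 0.15. Within the basolateral uptake list (8 tested, 4 of them members) 4 were called under NRF and 4 under DRF. Slc2a9, the basolateral urate and glucose carrier GLUT9, peaked at 9.95 h under NRF (amplitude 0.57 ± 0.06, adjusted p = 4.26e-08) and at 3.96 h under DRF (0.19 ± 0.06, adjusted p = 0.0445). It fell by 0.17 ± 0.05 in mean level (adjusted p = 0.0177). Its shift of -5.99 ± 1.26 h stood beside that of 1.40 ± 0.86 h for the apical urate carrier Slc22a12. The DRF minus NRF test of the rhythm was called for both, and the difference between their shifts was not tested.

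Within the apical efflux list (8 tested, 4 of them members) 6 were called under NRF and 3 under DRF, the latter being Abcg2, the conjugate pump Abcc2 (MRP2) and the phosphate and urate transporter Slc17a1. Within the apical uptake list (7 tested, Slc22a12 among them) 4 were called under NRF and 3 under DRF. Of the further SLC22 genes 8 of 13 were called under NRF and 4 under DRF. Slc51b, a subunit of the bile acid exporter, rose by 0.19 ± 0.05 in mean level under DRF (adjusted p = 0.0175). It peaked at 19.9 h under NRF and 11.8 h under DRF, a shift of -8.13 ± 1.47 h. Of 3 tested genes for PDZ scaffolds and their partners, which hold apical transporters in place, 3 were called under NRF and 2 under DRF.

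Regulators listed beside these genes moved in several ways. HNF4A is a nuclear receptor that sets proximal tubule identity. Hnf4a was called under neither regimen (amplitude 0.11 ± 0.04, adjusted p = 0.0745 under NRF, and 0.08 ± 0.04, adjusted p = 0.140 under DRF). Ppara, the fatty acid sensor that responds to fasting, was called under NRF (peak 9.77 h, amplitude 0.59 ± 0.07, adjusted p = 3.57e-07) and not under DRF (0.19 ± 0.08, adjusted p = 0.0965), and its rhythms differed (4.11e-07). The clock output factors Dbp and Hlf shifted by -2.82 ± 0.32 h and -1.17 ± 0.71 h. Among all listed genes Dbp, Nr1d1 and Arntl had the largest amplitudes, 3.30, 2.36 and 2.02 under NRF and 1.98, 1.39 and 1.25 under DRF. All of these were above the amplitude of any of the 9 transporters. Among the listed genes other than the 9 transporters, the clock repressor Nr1d2 had the largest difference in mean level, 0.23 ± 0.06 higher under DRF (adjusted p = 0.00466). Of the 21 tested factors 14 were called under NRF (53.0% of all genes), 14 under DRF (36.7%) and 13 for a difference in rhythm (46.5%).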

How the data were processed

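Kidney transcriptomes of 28 NRF and 28 DRF mice were used (4 per regimen and time point). Per the labels the authors' processing names HISAT2, Bowtie2 and RSEM with the mm10 and GRCm38.p6 builds, and no versions. The deposited values are headed TPM, but column sums of 999145 to 999753 and the value steps fit log2(CPM + 1), with CPM the reads scaled to library size, divided by transcript length and scaled, so they were treated as a score made by the authors. The planned tests were kept on TPM recomputed from them. Reads were recovered with GENCODE M21 exon lengths or a searched length (16518 of 17027 genes, and 99.6% of values of whole-read genes within 0.1 reads). Of the 9 transporters, 5 used the annotated length, Slc22a6, Slc22a8 and Slc22a12 a searched one, and Abcb1a counts were in hundredths. Genes without recovered reads were left out of the TPM total. Depth was 24.8 M to 28.9 M effective reads (M, 1e6) per library, and the differences carry counting error and the spread between mice.

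Tests used limma 3.58.1 (R 4.3.3) with an intensity trend on log2(TPM + 1) for the 13330 genes with a mean of at least 1 TPM: 24-h and 12-h cosines per regimen, their differences on clock time and after moving DRF by 12 h, and group contrasts, with Benjamini-Hochberg adjustment over all genes. The fits were checked on simulated data. Named transporters beyond the 9 and regulators followed the largest amplitudes or level differences among called list genes, and 5 regulators were to be named whatever their values, of which 1 is not reported here. The most similar 2 genes per member were named by Pearson's r over group means. The members and lists were chosen with earlier results of these data known. Replicate pairs differed by more than counting noise (at least 6.92 times the chi-square per gene expected). Symbols are those of RefSeq GRCm38.p6. Alternatives covered scaling, deposited values, pseudocount, filters, fold limits, a replicate block, and each library and time point left out.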

Additional observations from a re-analysis of the deposited data

Results flagged for a closer look

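In 5 of the 126 groups of 4 kidneys, 1 library stood apart from the other 3 by Dixon's criterion, and chance alone gives about 1 in 20 groups. NRF ZT16 replicate 2 was the lowest for Slc22a2 (310.4 TPM, the others 408 to 425) and for Slc22a12 (895 TPM, the others 1203 to 1208), and its summed adipose markers were 235 TPM. NRF ZT0 replicate 4 was the lowest for Slc22a6 (399 TPM, the others 554 to 576) and NRF ZT8 replicate 1 for Slc22a8 (826 TPM, the others 1130 to 1178). DRF ZT12 replicate 3 was the highest for Slc22a12 (1192 TPM, the others 939 to 975).

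For 3 transporters the rhythm differed between NRF and DRF by the test of the difference itself, Slc22a6 (adjusted p = 0.0259), Slc22a12 (0.0454) and Abcb1a (0.0244), where 46.5% of genes did.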

How the results depend on the processing

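Counts of the 9 transporters called changed as follows, and the cause was not tested. The NRF rhythm count went from 5 to 3 without ZT20. The DRF rhythm count went from 4 to 2 with the deposited values, to 2 without ZT0 and to 1 without ZT16. The differential rhythm count went from 3 to 0 with the deposited values, to 0 without ZT0 or ZT24 and to 1 without ZT12. The meal-time count went from 3 to 6 and the amplitude count from 0 to 1 without ZT4. The mean level count went from 1 to 0 at a fold of at least 1.2 and without ZT12, and to 2 without ZT8 or ZT20, the time points being left out there after seeing the data. The ZT0 count went from 1 to 0 with the deposited values, and the ZT16 count from 1 to 0 with these, with median-of-ratios scaling and with the authors' library sizes (chosen after seeing the data). With 1 library left out the counts ranged from 1 to 5 for differential rhythm (1 without NRF ZT12 replicate 2, 5 without NRF ZT16 replicate 2), 1 to 2 for mean level, 0 to 1 for ZT0, 0 to 3 for ZT8, 0 to 1 for ZT16 and 0 to 1 for ZT20. No called difference changed its sign, while some that were not called did, such as Abcb1a summed with Abcb1b at ZT16 (from -0.30 to 0.03). With a test for any difference among time points the DRF rhythm count went from 4 to 6. Samples with the same replicate number did not deviate together (median r = -0.00 over 351 pairs), so the numbers do not pair them. With a replicate block on 55 libraries the DRF rhythm count was 3, Slc22a7 having an adjusted p of 0.0640, and the other counts were as in the fit without it. Counting error matters most for Abcb1a, which had 329 reads in its lowest library.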
